A study of Mus musculus with 8 samples.

Results

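Genes that mark mesoderm, endoderm, endothelium and blood were followed in mouse embryoid bodies that had been directed to a neural fate, without and with stimulation of the Hedgehog (Hh) pathway. The set holds 44 marker genes, and no measured value enters the rule that found their probe sets. Its members were all non-control probe sets whose platform annotation names 1 of these genes alone. The rule found 78 probe sets for 43 genes, of 45037 non-control probe sets and 18193 genes on the array. No probe set in the annotation used here names T, the brachyury gene of the primitive streak, so T was not analysed here.

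Embryoid bodies are suspended aggregates of differentiating embryonic stem cells. All 8 samples are embryoid bodies exposed to 500 nM retinoic acid after 2 days in suspension, in DFNB medium, and 4 of them (replicates 5 to 8) also received the agonist HH-Ag at 1 uM while the other 4 (replicates 1 to 4) did not. Where the labels name the cells, in 7 samples, they are YFP3.1 embryonic stem cells expressing Gli1FLAG constitutively, collected on day 3 of differentiation, so both groups carry the tagged Hh-pathway factor and the retinoic acid. Replicate 7 has neither the line nor the time in its labels. Neither the promoter behind Gli1FLAG nor whether the line is 1 clone is stated in the labels. Nothing says how cultures were separated, so p-values measure only how far these samples spread, which may be technical.

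Mesoderm and definitive endoderm leave the epiblast through the primitive streak, while the cells that stay behind form ectoderm, from which the neural plate arises. T-box and basic helix-loop-helix factors mark the streak and the mesoderm that segments into somites, and forkhead and Hand factors mark mesoderm of the flanks, head and heart. Sox17 and the Gata4 and Gata6 factors specify endoderm. The extraembryonic endoderm of the yolk sac secretes alpha-fetoprotein, transthyretin and apolipoproteins. Endothelium and the first blood cells share a mesodermal origin, marked by the receptor Kdr and the factor Tal1. Retinoic acid applied to embryoid bodies favours neural differentiation over these lineages.

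Every array lay close to the others, with median intensities of 21.6 to 22.6, and their number sets the precision. The ratio of 3′ to 5′ control probe sets, a sign of RNA integrity, was 0.609 to 0.618 for Gapdh with retinoic acid alone and 0.602 to 0.627 with the agonist (exact permutation test, two-sided p = 0.629, smallest possible 0.0286). Of 10 neural identity genes 9 could be tested, and the neural adhesion gene Ncam1, the neuronal tubulin gene Tubb3 and the radial glia gene Fabp7 rose with the agonist (limma adjusted p = 2.64e-08, 4.20e-06 and 0.00113). Among all genes tested 2.18% were called. The other 6 did not pass. Of the 9 log2 changes 7 were above 0 and 2 below, those of Sox2 (-0.24) and Cdh2 (-0.11), with a median of 0.025. The untested gene was Sox1, under the filter at 9.71 ± 5.03 against 18.6 ± 9.82. Of 8 stem cell genes none passed (lowest limma adjusted p = 0.108), and their mean log2 level per array was 7.01 to 7.46 without and 6.99 to 7.20 with the agonist. At an unadjusted limma p under 0.05, 3 of the 8 passed (37.5%, against 13.7% of all genes). Their median log2 change was -0.19, beside -0.0059 over all genes. Stem cell transcripts such as Pou5f1 (141 ± 42.3 against 113 ± 19.1, mean intensity ± SD, n = 4 per group) were measured in the same bodies.

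No lineage marker passed the test for a change with the agonist. Testing covered probe sets whose log2(intensity + 16), averaged over all 8 arrays, exceeded the 40th percentile of the table, which corresponds to an intensity of about 15.1. A call was made at a Benjamini-Hochberg adjusted p under 0.05 in limma over all 27022 probe sets tested. Of the 78 member probe sets 38 were tested and 0 were called, where 1.87% of all tested probe sets were. With each gene represented by its brightest probe set, 27 of 43 members were tested, where 75.2% of all genes were. Of the 27, 0 were called, against 2.18% of all 13675 genes tested. Without the filter 0 of 78 were called, against 1.04% of the table.

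At an unadjusted limma p under 0.05, 3 of the 27 tested genes passed (11.1%, against 13.7% of all genes), and these were Sox17, Hand2 and Apoe. All 4 agonist values lay on 1 side of all 4 others for 1 of 27, Sox17 (3.70%, against 8.02% of all genes). The 27 log2 changes ran from -0.33 to 0.30 with a median of 0.0052, beside a median of -0.0059 over all genes, 14 above 0 and 13 below. Over the 27 genes the lowest limit of a 95% interval was -0.64, for Apoe, and the highest 0.57, for Hand2, on the log2 scale. Changes of that size are not excluded for those genes. Other intervals were narrower, such as -0.13 to 0.18 for Foxf1 and -0.19 to 0.18 for Gata1, and changes within them are not excluded. Fold changes on log2(intensity + 16) understate the change of dim genes, and in whole bodies fewer cells of a type and less RNA per cell cannot be told apart.

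**Figure D1:**
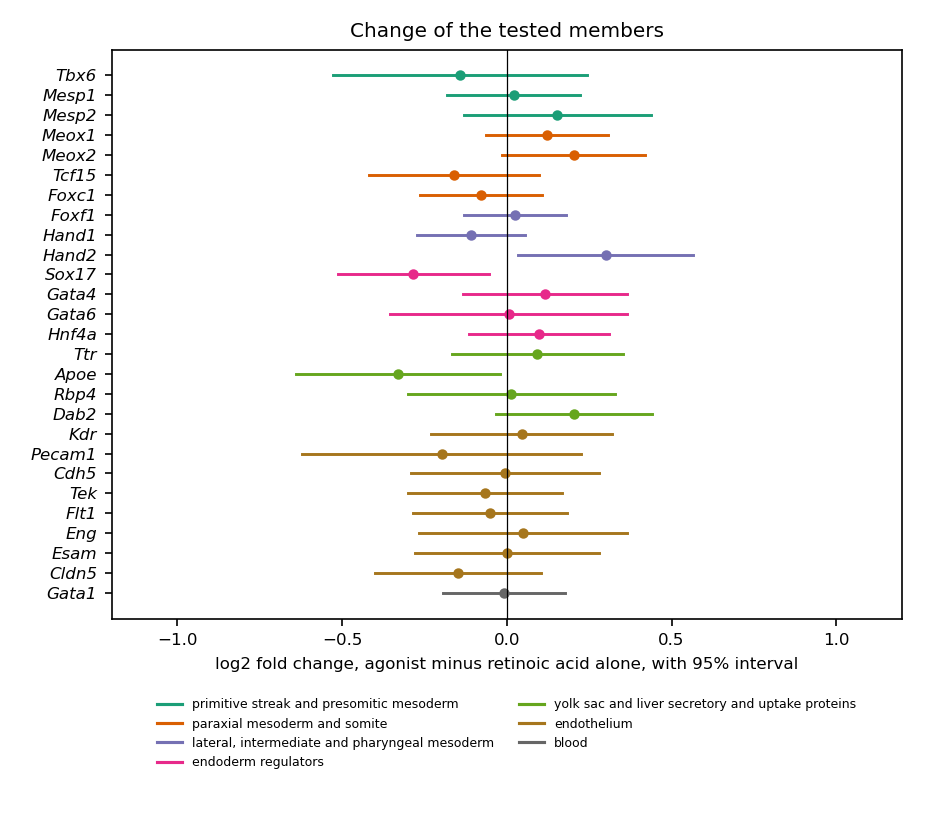
Log2 fold change (agonist minus retinoic acid alone, on log2(intensity + 16)) of the 27 tested member genes by their brightest probe set. Points are limma estimates, lines their 95% intervals, colours the lineages. The points run from -0.33 for Apoe to 0.30 for Hand2, and the intervals of Sox17, Apoe and Hand2 alone leave out 0 before adjustment.

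The lineages differed in how many of their probe sets reached the filter level, a measure taken over all 8 arrays and independent of group. By construction 60% of all probe sets did, and 48.7% of the members did. The share was 3 of 4 for primitive streak and presomitic mesoderm and 10 of 14 for endothelium, but 7 of 24 for yolk sac and liver proteins and 1 of 4 for blood. In between lay paraxial mesoderm with 4 of 8, lateral and other mesoderm with 5 of 9 and endoderm regulators with 8 of 15. The 40 member probe sets under the filter had single values of 0 to 28.2, and 4 of their values were exactly 0. No detection calls were used, so a probe set above the filter is not thereby shown to detect its transcript.

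**Figure D2:**
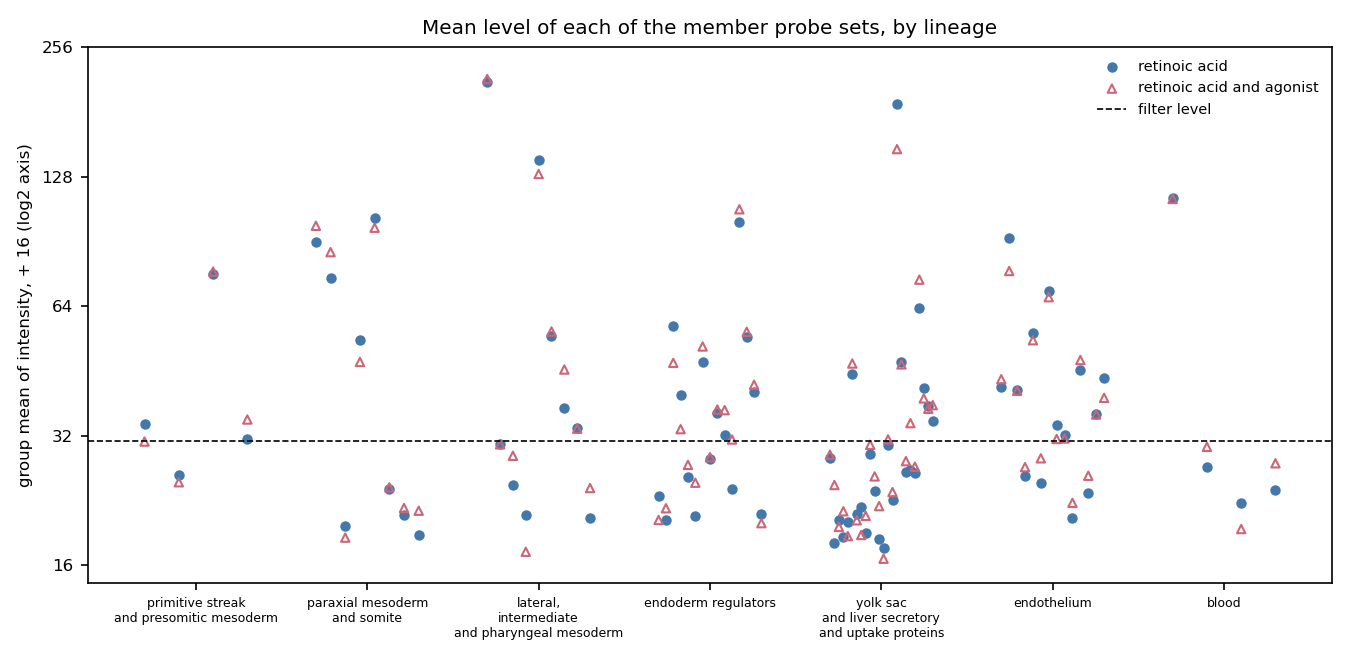
Group means of intensity with 16 added, on a log2 axis, for all 78 member probe sets in 7 lineages. Circles are retinoic acid alone and triangles retinoic acid with the agonist (each the mean of 4 arrays), and the dashed line is the filter level of 15.1 plus 16. Most yolk sac and blood probe sets lie under the line, with 7 of 24 and 1 of 4 tested.

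The proximal promoters of Apoe and Hand2 are shown because these genes had the largest downward and upward changes among the tested members, though neither was called. Both were taken from RefSeq (GRCm38.p6) and run 5′ to 3′ from 250 bases before the annotated start site to 50 after it. The Apoe window, at chr7:19698349-19698648 on the minus strand, belongs to the most downstream of 3 annotated starts of the gene. Its capitals mark GACCACCC, the Gli binding motif GACCACCCA without its last base, beginning at position -117 from the start. Only this one of the 3 Apoe windows is printed, and it alone held a match. Those at the other starts held none of the motifs searched. The window of the most upstream start, at chr7:19699139-19699438, was among those without a match. The Hand2 window, at chr8:57320733-57321032 on the plus strand, has in capitals AGATAA, a binding motif of GATA factors, read on the opposite strand with its first printed base at position -172.
Apoe: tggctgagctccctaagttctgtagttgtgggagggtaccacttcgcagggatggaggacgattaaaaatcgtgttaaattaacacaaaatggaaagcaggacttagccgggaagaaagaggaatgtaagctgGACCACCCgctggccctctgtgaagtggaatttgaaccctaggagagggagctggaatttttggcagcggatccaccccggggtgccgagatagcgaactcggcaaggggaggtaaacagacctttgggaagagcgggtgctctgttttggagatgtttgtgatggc
Hand2: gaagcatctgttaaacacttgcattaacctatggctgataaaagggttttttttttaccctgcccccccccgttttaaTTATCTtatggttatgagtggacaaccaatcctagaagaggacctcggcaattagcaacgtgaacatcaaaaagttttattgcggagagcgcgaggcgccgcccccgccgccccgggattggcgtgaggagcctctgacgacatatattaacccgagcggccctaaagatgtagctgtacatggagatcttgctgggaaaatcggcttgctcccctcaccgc
The promoter table matched 29 member genes with 36 windows of this length, and all motifs were searched on both strands. The motif GACCACCCA was found in 0 of 36 windows and in 0.253% of all 32851. Its shorter form GACCACCC, contained in it, was found in 2 of 36, those of Apoe and Rbp4, and in 0.807% of all. AGATAA was found in the windows of 5 genes (Dab2, Hand2, Hnf4a, Tal1 and Tek), 13.9% of the member windows against 11.2% of all. These matches describe letters and do not show binding.

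In the primitive streak and presomitic group, Mesp1, a helix-loop-helix factor of the earliest cardiac and head mesoderm, had intensities of 54.4, 66.9, 55.9 and 62.6 with retinoic acid alone and 57.1, 60.4, 66.7 and 59.6 with the agonist. The groups lay over each other, and the log2 fold change was 0.020 (SE 0.096, limma adjusted p = 0.963). Mesp2, its relative that sets somite boundaries, had 14.8, 11.5, 16.1 and 19.4 against 17.0, 21.0, 19.5 and 18.0. All agonist arrays exceeded replicates 1, 2 and 3, while replicate 4 lay among them (log2 fold change 0.15, SE 0.13, limma adjusted p = 0.715). Tbx6, which directs presomitic cells away from a neural fate, had 18.0 ± 6.39 against 15.0 ± 7.13. Its lowest values were 9.36 in replicate 1 and 6.72 in replicate 5, the arrays of the first hybridisation day, and its log2 fold change was -0.14 (SE 0.18, limma adjusted p = 0.819). Msgn1, a presomitic regulator, was under the filter at 9.90 ± 7.14 against 8.92 ± 7.24. Mean log2 levels of the 3 tested genes were 5.25 to 5.60 per array without and 5.25 to 5.54 with the agonist.

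Among paraxial mesoderm and somite genes 4 of 6 were tested. Meox1, a homeobox gene of the somites, had 71.5, 71.4, 73.5 and 80.9 with retinoic acid alone and 85.2, 76.3, 81.0 and 86.8 with the agonist. The agonist arrays were higher apart from replicate 6, which lay under replicate 4 (log2 fold change 0.12, 95% interval -0.06 to 0.31, limma adjusted p = 0.639). Meox2, its paralog in somites and limb muscle, had 67.9, 59.7, 58.4 and 47.7 against 64.2, 76.3, 65.0 and 72.1 by a probe set whose suffix in the array maker's naming (_s_at) marks probes shared by several transcripts. Its change was 0.20 (interval -0.01 to 0.42, limma adjusted p = 0.450), and its other probe set lay under the filter at 3.74 ± 1.74 against 2.53 ± 3.25. Foxc1, a forkhead factor of paraxial and cranial mesoderm, had 87.7, 84.3, 92.4 and 82.1 against 85.3, 86.9, 73.0 and 80.0, so that the groups overlapped. Its second probe set was under the filter as well, at 8.06 ± 1.68 against 8.25 ± 4.05. Tcf15, which makes somites epithelial, had 37.3 ± 8.16 against 31.4 ± 3.47 (limma adjusted p = 0.668). Foxc2, which acts with Foxc1, and Myf5, the first myogenic factor, were dim, at no more than 8.84 on any array.

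In mesoderm of the flanks, kidney field and pharynx 3 of 5 genes were tested. Foxf1, a forkhead factor of splanchnic mesoderm that answers to Hh from the gut in the embryo, had 182, 210.4, 199 and 193 with retinoic acid alone and 198, 211, 204 and 186 with the agonist. The groups covered the same range, and the log2 fold change of 0.024 had an interval of -0.13 to 0.18 (limma adjusted p = 0.938). A second Foxf1 probe set was under the filter, at 14.6 ± 6.92 against 14.5 ± 0.482. Hand1, a factor of heart, lateral and extraembryonic mesoderm, had 127, 115, 124 and 129 against 119.7, 111, 112 and 112. Replicate 2 lay among the agonist arrays, and replicate 5 stood above the other 3 of its group (log2 fold change -0.11, SE 0.078, limma adjusted p = 0.642). Its second tested probe set went the other way, with 38.6 ± 9.08 against 39.9 ± 4.92.

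Hand2, which patterns limb buds upstream of and in response to Hh and also marks the heart and sympathetic neurons, had the largest upward difference of the 27 tested members by their brightest probe sets. Its intensities were 22.7, 15.999, 23.8 and 21.4 with retinoic acid alone and 33.1, 33.1, 23.4 and 28.6 with the agonist. Replicate 7 lay just below replicate 3, and the other agonist arrays lay above all retinoic acid arrays. The log2 fold change was 0.30 (SE 0.13, 95% interval 0.03 to 0.57, unadjusted p = 0.0293, limma adjusted p = 0.331). A second tested probe set of Hand2 showed 17.3 ± 4.27 against 17.2 ± 4.42, and another under the filter showed 4.61 ± 1.15 against 8.16 ± 3.84. Osr1, a zinc finger gene of intermediate mesoderm, was under the filter at 8.58 ± 4.05 against 12.7 ± 4.56. Tbx1, a pharyngeal gene controlled by Hh in the embryo, was also under it, with 6.44, 3.84, 4.16 and 5.39 against 2.70, 1.75, 0.222 and 0.0575. Its groups did not overlap, and it did not pass when all probe sets were tested (limma adjusted p = 0.498). Groups without overlap occurred in 2 of the 40 member probe sets under the filter. The share over all probe sets under the filter was not computed. For exchangeable arrays, 4 against 4 separate in this way with probability 0.0286 per probe set, so the count is not read as a result.

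Of the endoderm regulators 4 of 6 were tested, and Sox17 had the lowest p of the tested members. Sox17, which specifies definitive endoderm and also acts in endothelium, had 38.2, 37.8, 46.1 and 43.9 with retinoic acid alone and 26.6, 29.7, 34.1 and 34.4 with the agonist. Every agonist array lay below every retinoic acid array. The log2 fold change was -0.28 (SE 0.11, 95% interval -0.51 to -0.05, unadjusted p = 0.0181), which did not pass after adjustment (limma adjusted p = 0.269). A second probe set, of the _x_at class that can cross-hybridise, had 24.6, 21.6, 29.2 and 19.8 against 18.5, 16.01, 21.8 and 12.2, overlapping between groups (log2 fold change -0.27, limma adjusted p = 0.456). The Sox17 difference was -0.35 between the 2 arrays of the first hybridisation day and -0.26 in the 3 against 3 arrays of the second. On that second day the groups ran on different fluidics stations, so station and group cannot be told apart there.

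Hnf4a, a nuclear receptor of visceral endoderm and liver, had 88.0, 69.2, 94.5 and 86.5 against 101, 95.9, 80.3 and 88.3 by its brightest probe set, also of the _s_at class. The agonist values fell inside or just above the range of the others (log2 fold change 0.098, SE 0.10, limma adjusted p = 0.761). Without replicate 2 the change was 0.020, and by the mean of its probe sets it was 0.035. Its next tested probe sets gave 38.1 ± 7.62 against 39.8 ± 6.47 and 24.4 ± 3.04 against 26.0 ± 5.68, while the last was under the filter. Gata4, which drives endoderm and heart genes, had 31.4 ± 3.56 against 35.5 ± 6.18, and Gata6, its partner in primitive endoderm, 20.1 ± 5.23 against 20.8 ± 9.10 by its brightest probe set. Neither passed (limma adjusted p = 0.759 and 0.995). A Gata6 probe set under the filter had 8.09 ± 6.69 against 15.3 ± 3.40. Cer1, a secreted Nodal and BMP antagonist of anterior visceral endoderm, and Sox7, a relative of Sox17 in parietal endoderm, were under the filter by both of their probe sets, with group means of 4.36 to 11.4.

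Yolk sac and liver proteins had the most probe sets, 24 for 9 genes, and were mostly dim. Afp, the alpha-fetoprotein gene and the classical marker of visceral endoderm in embryoid bodies, was under the filter by all 5 of its probe sets, with group means of 1.98 to 12.9. Apoa1, an apolipoprotein gene, was under it by all 4 of its probe sets and Apob by both. One Afp probe set had 0.613, 1.04, 3.12 and 3.14 against 10.9, 6.70, 4.64 and 11.9, without overlap but with both groups under the filter, and it did not pass when all probe sets were tested (limma adjusted p = 0.226). That was the lowest adjusted p among the 40 dim member probe sets. Only this one and that of Tbx1 had groups without overlap, a count with no share over all dim probe sets beside it. Ttr, the transthyretin gene, was above the filter by 1 of 4 probe sets, again of the cross-hybridising _x_at class, with 28.5 ± 6.62 against 31.0 ± 0.988. The other 3 had group means of 2.79 to 5.81.

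Apoe, an apolipoprotein gene made by yolk sac and also by glia and macrophages, had the largest downward difference of the 27 tested members by their brightest probe sets. Its intensities were 158, 197, 117 and 218 with retinoic acid alone and 111, 145, 162 and 111 with the agonist. Replicate 3 lay with the low agonist arrays, and replicate 7 lay above replicate 1, so the groups overlapped. The log2 fold change was -0.33 (SE 0.15, 95% interval -0.64 to -0.02, unadjusted p = 0.0383), which did not pass after adjustment (limma adjusted p = 0.369). Leaving out 1 array moved it from -0.21 without replicate 4 (limma adjusted p = 0.690) to -0.49 without replicate 3 (limma adjusted p = 0.0552), and without replicate 2, 5 or 8 it was -0.26. Rbp4, the plasma carrier of retinol, had 31.5 ± 12.7 against 30.8 ± 2.61, with 49.8 in replicate 4 and 21.5 to 29.9 in the other retinoic acid arrays.

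The uptake machinery of visceral endoderm was followed through cubilin (Cubn), its membrane partner amnionless (Amn) and the adaptor Dab2, which together with megalin (Lrp2) take up proteins from outside the cell. Dab2 had 47.7, 44.1, 49.4 and 48.8 against 74.6, 47.3, 52.7 and 56.3 by its brightest probe set. Replicate 5 was high and replicate 6 lay within the retinoic acid range (log2 fold change 0.20, SE 0.11, limma adjusted p = 0.507). Without replicate 5 the change was 0.099, and by the mean of the gene's probe sets it was 0.055. The other 3 tested Dab2 probe sets had changes of -0.09, -0.02 and 0.13, in both directions. Cubn was under the filter, with 10.6 ± 4.84 against 18.2 ± 4.02 by its brighter probe set and 10.1 ± 3.37 against 11.1 ± 2.36 by the other. Amn was under it as well, at 10.3 ± 7.00 against 11.9 ± 3.51. Lrp2, no member but part of the same complex and also a Sonic hedgehog-binding receptor of the neural tube, had 44.8, 41.6, 51.2 and 41.8 against 22.0, 24.4, 27.0 and 34.2. All agonist arrays lay below all others, and Lrp2 fell by 0.51 on the log2 scale (SE 0.12, limma adjusted p = 0.0266). This call was lost without replicate 1, 2, 3, 5, 6 or 7 (limma adjusted p = 0.0509 to 0.0957) and in the second hybridisation day alone (0.168), with the fall in each. Its other 2 probe sets were under the filter.

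Endothelial genes were mostly above the filter, with 8 of 9 tested by their brightest probe set, where 75.2% of all genes were. None passed. Flt1, a receptor for vascular endothelial growth factor, had 55.2, 49.7, 45.6 and 63.6 against 55.8, 42.4, 57.5 and 48.6. The groups shared their range (log2 fold change -0.05, SE 0.11, limma adjusted p = 0.909), as they did for its 2 dimmer tested probe sets. Kdr, the second such receptor and an early marker of blood vessel and blood precursors, had 25.5 ± 1.12 against 27.3 ± 7.56, with 38.1 in replicate 5. The angiopoietin receptor gene Tek had 39.5 ± 2.36 against 37.3 ± 6.49, and the vascular cadherin gene Cdh5 24.7 ± 4.62 against 24.7 ± 5.32. Eng, a TGF-beta co-receptor, had 29.5 ± 3.51 against 31.9 ± 10.8, and the tight junction gene Cldn5 27.5 ± 4.30 against 23.2 ± 1.64. Tie1, the receptor relative of Tek, was under the filter at 8.89 ± 4.98 against 12.3 ± 3.69. Esam, a junction adhesion gene, had 22.0, 21.9, 21.0 and 14.6 against 24.2, 19.0, 16.4 and 19.6, and replicate 4 stood below the other retinoic acid arrays.

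Pecam1, an adhesion molecule of endothelium that mouse embryonic stem cells also carry, varied most between replicates, with the largest standard error of the 27 genes. It had 54.8, 96.5, 40.8 and 113 with retinoic acid alone and 46.7, 65.3, 79.4 and 53.4 with the agonist. The retinoic acid arrays alone spanned the whole agonist range, with replicates 2 and 4 high and replicate 3 low. The log2 fold change was -0.20 (SE 0.20, 95% interval -0.62 to 0.22, limma adjusted p = 0.756). It was -0.010 without replicate 4 and -0.41 without replicate 3.

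**Figure D3:**
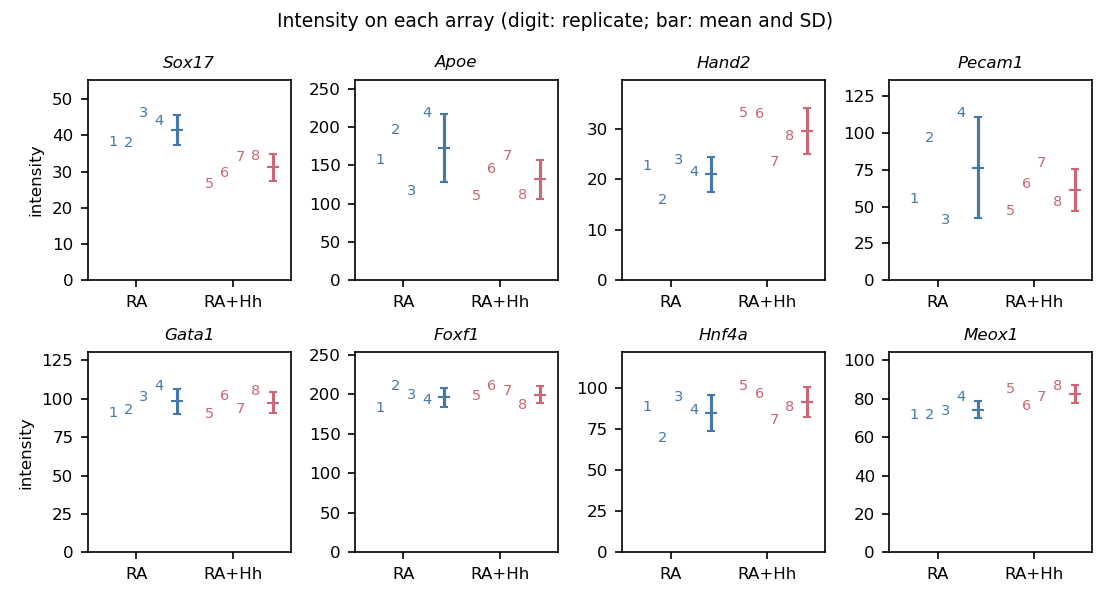
Intensity of 8 members on every array, each by its brightest probe set, from 0. Digits are the replicates at their values (1 to 4 retinoic acid alone, RA, and 5 to 8 with the agonist, RA+Hh), and bars show the group mean and SD. Sox17 separates the groups, Hand2 nearly does, and Apoe and Pecam1 spread most within the retinoic acid group, with replicate 3 low and replicate 4 high.

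Of the blood genes 1 of 4 was tested. Gata1, the master regulator of red blood cell and platelet precursors, had 90.6, 92.5, 101 and 109 with retinoic acid alone and 89.9, 102, 93.3 and 105 with the agonist. The values of the groups alternated, and the log2 fold change of -0.0086 had an interval of -0.19 to 0.18 (limma adjusted p = 0.985). Klf1, which switches on globin genes together with Gata1 (11.1 ± 4.51 against 14.1 ± 1.45), Lmo2, a bridging protein of the same complexes (6.29 ± 4.59 against 3.40 ± 2.91), and Tal1, the blood and endothelial factor within them (7.95 ± 4.32 against 11.6 ± 2.46), lay under the filter. No second blood member was above the filter.

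Probe sets of 1 gene often disagreed in level. Of 20 members with several probe sets 11 had at least 1 above and 1 under the filter, and Foxf1, Foxc1, Hnf4a and Meox2 were among them. Of 7 members with several tested probe sets, 3 (Hand1, Hand2 and Dab2) had changes of both signs, none of which was called. Array means of the tested members overlapped between the groups in all 7 lineages. Over all 27 genes they were 5.94 to 6.03 without and 5.93 to 5.99 with the agonist.

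Levels of the members on each array were compared with those of the stem cell genes, and no relation passed after adjustment. The per-array mean log2 level of the 8 stem cell genes was set against each of the 27 tested members, 27 relations over 8 arrays. Exact permutation p-values were adjusted over the 27. Arrays were permuted without regard to group or hybridisation day, so these p-values do not separate group differences from spread within groups. Apoe had Pearson's r = 0.836 (exact p = 0.00955, adjusted p = 0.105) and Spearman's rho = 0.738 (exact p = 0.0458, adjusted p = 0.248). Pecam1 had r = 0.807 (exact p = 0.0155, adjusted p = 0.105) and rho = 0.690 (exact p = 0.0694, adjusted p = 0.268). Neither passed after adjustment. Without replicates 4 and 6, the 2 arrays farthest from the median of the stem cell mean, r was 0.890 for Apoe and 0.838 for Pecam1. On the second hybridisation day (6 arrays) r was 0.898 and 0.906, and with group means removed it was 0.777 and 0.815, while the first day holds 2 arrays and gives no value.

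Flt1 had r = 0.809 (exact p = 0.0152, adjusted p = 0.105) and rho = 0.786 (exact p = 0.0279, adjusted p = 0.248). Its r was 0.489 without those 2 arrays, on which the relation thus leans, 0.853 on the second day and 0.846 with group means removed. The cross-hybridising Ttr probe set ran the other way, with r = -0.892 (exact p = 0.00265, adjusted p = 0.0717), rho = -0.690 (exact p = 0.0694, adjusted p = 0.268) and -0.907 without the 2 arrays, and it too did not pass after adjustment. Gata1 had r = -0.0092 (exact p = 0.983, adjusted p = 0.983), and -0.726 without the 2 arrays. The strongest rank relations were those of Cldn5 (rho = 0.810) and Hand2 (rho = -0.810), each with exact p = 0.0218 and adjusted p = 0.248. Meox2 had r = -0.738 (exact p = 0.0352, adjusted p = 0.190). The part of stem cell transcripts in the spread of Apoe and Pecam1 was not tested further.

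**Figure D4:**
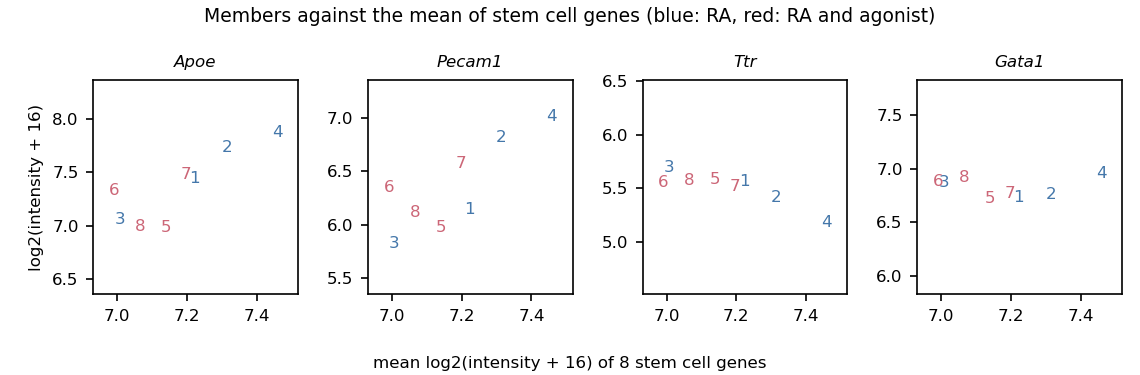
Log2(intensity + 16) of Apoe, Pecam1, Ttr and Gata1 (vertical axes, each spanning the same log2 range) against the mean of 8 stem cell genes on the same array (horizontal axis, same scale). Digits are replicates, blue for retinoic acid alone and red with the agonist. Apoe and Pecam1 are highest on arrays 2 and 4, where the stem cell mean is highest, Ttr is lowest there, and Gata1 has r = -0.0092 over the 8 arrays.

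Further genes of the same lineages, not members, were tested in the same fit. They were listed from textbook knowledge, but with earlier results of these data known. Of 16 tested mesoderm genes, among them Eomes, Mixl1, Gsc and Nkx2-5, none passed and the median log2 change was 0.044. Of 14 tested blood and endothelial genes, among them Runx1, Hbb-bh1 and Plvap, none passed and the median was 0.12. Of 12 tested endoderm genes 1 rose and 1 fell, with a median of 0.11. These were Col4a1, a basement membrane collagen gene, with 34.3, 29.0, 35.7 and 35.8 against 62.4, 49.4, 61.3 and 57.7, and the endocytic receptor gene Lrp2. Every agonist array of Col4a1 lay above every other (log2 fold change 0.57, SE 0.10, limma adjusted p = 0.00500), while its second probe set did not pass (limma adjusted p = 0.310). In the second hybridisation day alone the brighter one missed the threshold, with a log2 fold change of 0.54 (limma adjusted p = 0.0507). The medians stand beside -0.0059 over all genes tested, and the calls beside 2.18% of all genes. At an unadjusted limma p under 0.05, 5 of the 12 endoderm genes passed (41.7%, against 13.7% of all genes). They went in both directions. Col4a1, Col4a2 and Apom were higher with the agonist (log2 changes 0.57, 0.47 and 0.30), and Lrp2 and Sparc lower (-0.51 and -0.25). As the list was made with earlier results known, its share above that of all genes is no independent result. The groups did not overlap for 3 of the 12 (25%, against 8.02% of all genes). By brightest probe sets, the mesoderm list and the blood and endothelial list held no such gene. Dimmer tested probe sets of Kit, Mmrn2 and Egfl7 did pass the unadjusted limma threshold (log2 changes -0.55, -0.33 and -0.38), that of Mmrn2 without overlap. None of these was called, and Mmrn2 and Egfl7 also had tested probe sets with changes above 0.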

How the data were processed

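RNA from 8 samples was hybridised to 1-colour Mouse430_2 arrays (chip type per the file headers). The authors deposited 1 linear intensity per probe set and array, and their probe summary, background correction and scaling are not given in the sources used here. Per the file headers, instrument records give other details such as hybridisation day and chip lot, which change together: replicates 1 and 5 fall on the first day and the rest on the second. Replicates 6 to 8 ran on station 2 and all others on station 1. On the second day station and group thus cannot be told apart for any gene reported here, called or not. Groups and replicates came from sample titles.

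Of 45101 probe sets 64 are controls, 34945 name 1 gene in the platform annotation, 932 several, and 9160 are not listed. RefSeq matched 34741 by gene identifier, 1 by accession, and 1 symbol was updated. Deposited normalization was kept. Log2(intensity + 16) was fitted with limma (version 3.58.1, R 4.3.3; lmFit and eBayes with intensity trend, two-sided) above the 40th percentile, and checked on simulated data. Adjusted p-values are limma's over all tested probe sets. A gene was represented by its brightest probe set.

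The members and lists were chosen with earlier results of these data known. Values per array are given, by rule, for the 2 brightest tested members and the largest change in each lineage, and for tested members that were called, did not overlap or had a stray array, and also for 2 dim probe sets without overlap. Python 3.11.15, pandas 2.3.3, numpy 2.4.6, scipy 1.17.1 and matplotlib 3.10.9 were used. Alternatives were quantile normalization, median centring, 1 or 64 added, other filters, no trend, array weights, a gene's mean probe set, hybridisation day as a block, leaving out each array and, added after seeing the data, the second day alone and all of these for Lrp2 and Col4a1.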

Additional observations from a re-analysis of the deposited data

Results flagged for a closer look

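Among 54 groups of 4 arrays (27 tested members in 2 groups), 2 had 1 array far from the other 3, where chance flags about 1 in 20. Hand1 had 119.7 on agonist replicate 5, above the other agonist arrays. Esam had 14.6 on retinoic acid replicate 4, below the other retinoic acid arrays.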

How the results depend on the processing

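In all 19 other settings run 0 member genes were called, as were 0 member probe sets in those that test probe sets singly, and the lowest adjusted p was 0.0552, for Apoe without replicate 3. Leaving out 1 array kept both counts at 0. With the filter at the 60th percentile 17 member genes and 19 probe sets were tested, and no value could be given for the named members that it removed, nor by a gene's mean probe set for those that mean took under the filter. The log2 change of Sox17 ran from -0.40 with 1 added to -0.15 with 64 added, below 0 in every setting, and that of Hand2 kept its direction in the settings that tested it. Leaving out 1 array gave 0.13 to 0.26 for Meox2, 0.090 to 0.21 for Mesp2 and -0.11 to -0.036 for Foxc1, and by a gene's mean probe set the change was 0.050 for Meox2, -0.033 for Hand1 and -0.040 for Foxc1. Of 297 recomputed values of the 16 named members, 276 kept direction and call, and 21, all of members whose change was -0.05 to 0.02, turned sign. Outside the leave-one-out settings these were Esam (0.0022 with 1 added), Foxf1 (-0.0032 on the second day alone) and Gata1 (0.0057 with quantile normalization, 0.020 with array weights). Leaving out 1 array gave -0.075 to 0.046 for Esam, -0.11 to 0.017 for Flt1, -0.0073 to 0.056 for Foxf1, -0.041 to 0.034 for Gata1 and -0.015 to 0.064 for Mesp1. The cause was not tested. With 4 arrays a group the median standard error of the tested members was 0.12 on the log2 scale, and probe sets under the filter had little signal in which a change could be seen. Of the 2 called endoderm genes outside the members, Col4a1 was called in 18 of 19 other settings and Lrp2 in 11 of the 18 that tested it, each in its direction throughout. No paired analysis was possible because the 2 groups share no replicate numbers.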
